A study of Mus musculus with 2 samples.

Results

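The genes described here are 9 transcription factors of myeloid cells: Spi1, Cebpa, Cebpb, Cebpd, Cebpe, Maf, Runx1, Klf4 and Mitf. They were chosen by symbol, and each matched 1 of the 18722 loci in the deposited table. RNA was sequenced from testes of male C57BL/6J mice at 16 weeks of age, as 1 library from testis labelled shControl with a wild-type genotype and 1 from testis labelled shDmrt1 with a Dmrt1 knockdown genotype. A short hairpin RNA is a folded RNA that lowers the messenger RNA it matches, and Dmrt1 encodes a DNA-binding regulator found in Sertoli cells and in spermatogonia. The labels do not say how the hairpin was delivered, which cells took it up or how many animals a library holds. There were no replicates, so every value compares 2 libraries and no test between the groups was possible.

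Myeloid cells (monocytes, macrophages, granulocytes and mast cells) develop under a small set of transcription factors that act in combination. PU.1, the product of Spi1, and the C/EBP proteins open and activate the genes of these lineages, and the other factors refine the outcome towards monocytes, granulocytes, resident macrophages, osteoclasts or mast cells. The mouse testis holds resident macrophages in the interstitium, beside the Leydig cells, and around the tubules. Several of the factors also work outside blood: Klf4 in Sertoli cells and spermatids of the mouse, Mitf in melanocytes, and Cebpb in Leydig cells of rodents.

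Sequencing gave 17846426 counts for the control and 24594371 for the knockdown sample. Dmrt1 itself was lower in the sample labelled shDmrt1, at 39 counts against 852 (log2 ratio -4.46, interval -4.98 to -4.01). Ratios are of counts scaled by TMM factors, and each interval is a 95% interval of counting error only, which holds no spread between animals. A locus was counted as higher or lower where its whole interval lay beyond 2-fold. By that rule 17.7% of 15104 loci with 1 CPM or more (a count scaled to its library's total) in 1 library were higher in the knockdown library and 20.8% were lower, so higher loci made up 45.9% of those past the rule. Scaled by library totals, 12.7% were higher and 27.8% lower, a share of 31.4%. Totals in place of TMM shift every log2 ratio by -0.44.

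All 9 factors had more counts in the knockdown library, which was also the deeper one. By the 2-fold rule 6 of the 9 were higher, namely Spi1, Cebpa, Cebpb, Cebpe, Runx1 and Mitf. None was lower, and Cebpd, Maf and Klf4 were neither, set against the background of 17.7% of loci higher. The median log2 ratio of the 9 was 2.49, from 0.44 for Maf to 3.23 for Spi1, against -0.03 over all tested loci, of which the upper quartile lay at 0.79. By a looser rule, at least 1.5-fold with an interval that excludes 1, 8 of the 9 were higher against 29.5% of all loci, and Maf was the exception. Of the 9, 7 had at least 1 CPM in both libraries. Cebpd and Cebpe reached it in the knockdown library alone and so could enter the tested loci only through the library in which they were high.

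The 2 libraries differed broadly in the markers of testis and immune cells. Their calls stand against 17.7% of all loci higher and 20.8% lower, or 12.7% and 27.8% with library totals. Of 11 macrophage and monocyte markers 10 were higher in the knockdown library, with summed levels of 583 and 4567 CPM in control and knockdown, and none was at 0. The 12 neutrophil markers summed to 11.7 and 1002 CPM, with 4 at 0 in the control library. All 12 passed as higher, but 10 of them reached 1 CPM in the knockdown library alone, so the filter largely fixed their direction. All 8 T and NK cell markers were higher, from 86.9 to 554 CPM, as were 6 of 9 endothelial markers, from 124 to 384 CPM, and 7 of 8 fibroblast markers, from 1334 to 8258 CPM. Of 7 markers of peritubular myoid and smooth muscle cells, 1 was higher and 1 lower, or none and 2 with library totals, with sums of 585 and 302 CPM. Library totals also made 6 fibroblast markers higher and 1 lower, and 9 macrophage and monocyte markers higher. The 7 Leydig cell markers were all lower, from 23376 to 240.1 CPM, as were the 9 Sertoli cell markers, from 1555 to 172 CPM. Of these, 1 Leydig and 2 Sertoli cell markers reached 1 CPM in the control library alone. Germ cell markers were scarce in both libraries, with 120.1 and 4.64 CPM over 10 genes. The control library, against which every ratio is taken, was thus itself low in them, and the reason was not tested. All 9 tested were lower, although 8 of them reached 1 CPM in the control library alone, and 2 of the 10 were at 0 in the knockdown library. The part that these shifts have in the ratios of the 9 factors was not tested. In RNA of whole tissue, more cells of a type and more RNA per cell cannot be told apart.

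**Figure D1:**
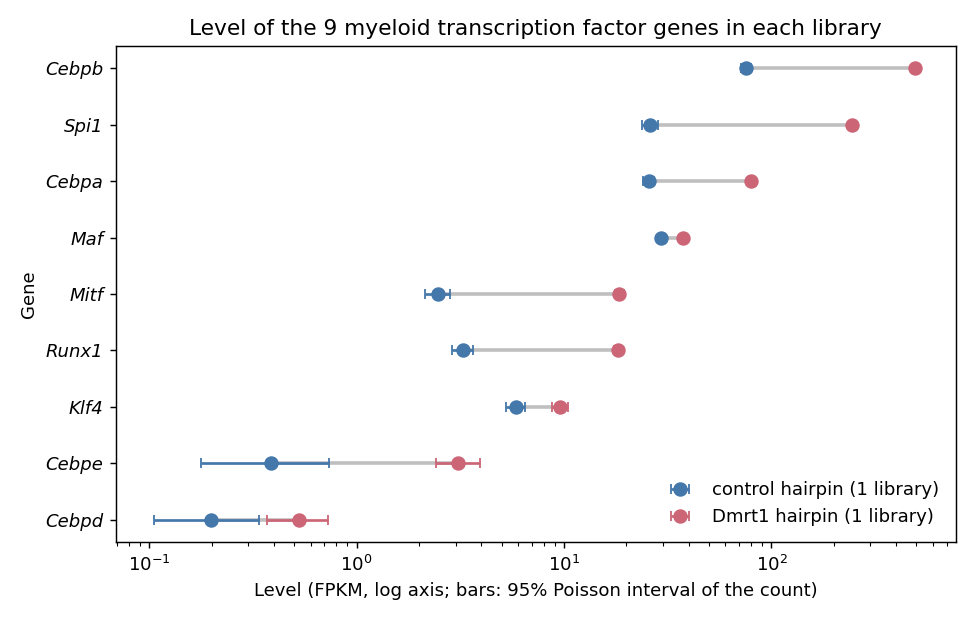
Level of each factor in FPKM (reads relative to gene length and library depth, log axis) in the control library (blue) and the knockdown library (red), with the 95% Poisson interval of the count as bars. Cebpb lies highest in both libraries, at 75.4 and 493 FPKM, and Cebpd lowest, at 0.198 and 0.528 FPKM.

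Spi1 (ENSMUSG00000002111, chromosome 2, 91082390 to 91115756 on the plus strand of GRCm38, protein-coding) encodes PU.1, the ETS factor required for macrophages and for the early steps of granulocyte development. It had 552 counts in control and 5289 counts in knockdown testis, or 30.9 and 215 CPM. The point value of its ratio was the highest of the 9, and its interval overlapped those of Mitf and Cebpe. Its level per length, in FPKM, was 26.0 (95% Poisson interval 23.9 to 28.2) in the first and 244.7 (238 to 251) in the second. The ratio was 9.40-fold (log2 3.23, interval 3.11 to 3.36), and 95.4% of tested loci had a lower one. By FPKM it lay above 77.4% of tested loci in the control and above 96.7% in the other library. In the authors' deposited table Spi1 has a log2 fold change of 3.22 and is called up, from 1 library per group.

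The C/EBP factors are basic leucine zipper proteins that pair with one another and bind the same DNA motif. Cebpb (ENSMUSG00000056501, chromosome 2, 167688915 to 167690418, plus strand) takes part in macrophage activation and in the granulocyte output of inflammation. It had 1165 and 6664 counts and the highest level of the 9 in both libraries, 75.4 FPKM (71.1 to 79.8) and 493 FPKM (481 to 505). Its ratio was 5.62-fold (log2 2.49, interval 2.40 to 2.58).

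Cebpa (ENSMUSG00000034957, chromosome 7, 35119293 to 35121928, plus strand) is needed for the progenitors of granulocytes and monocytes and also acts in liver and fat. It had 1046 and 3105 counts, or 25.7 FPKM (24.1 to 27.3) and 79.8 FPKM (77.0 to 82.6). The ratio of 2.91-fold (log2 1.54, interval 1.44 to 1.65) was smaller than that of Cebpb, and their intervals did not overlap. With library totals Cebpa kept its call by a narrow margin, with a lower bound of 1.01 on the log2 scale. Among 5 C/EBP genes, the 4 above and below and Cebpg, Cebpb made up 67.9% and 82.4% of the summed FPKM in control and knockdown. Cebpa made up 23.1% and 13.3%. These shares leave out Ddit3, a further gene of the family, which lay at 24.6 and 27.5 FPKM.

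Cebpe (ENSMUSG00000052435, chromosome 14, 54710360 to 54712174, minus strand) drives the last steps of granulocyte maturation and the genes of secondary granules. It was scarce, with 9 and 69 counts, or 0.387 FPKM (0.177 to 0.735) and 3.10 FPKM (2.41 to 3.92). The ratio was 7.19-fold with a wide interval (log2 2.85, interval 1.91 to 4.10), which overlapped those of Spi1, Cebpb, Runx1, Mitf and Cebpd. Cebpd (ENSMUSG00000071637, chromosome 16, 15887286 to 15891031, plus strand), a factor of the acute inflammatory response, was lower still. It had 13 and 36 counts, or 0.198 FPKM (0.106 to 0.339) and 0.528 FPKM (0.370 to 0.731), the lowest point values of the 9 in both libraries, although its interval overlapped that of Cebpe in the control. At this depth its ratio of 2.66-fold (log2 1.41, interval 0.49 to 2.48) could not be placed on either side of 2-fold.

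The level of Cebpd also depends on the gene model. By counts Cebpb lay 89.6-fold above Cebpd in the control library, and by FPKM 380-fold. Exons of Cebpd cover 3746 bases in GENCODE M21, against 1504 for Cebpb, and those of Cebpd overlap exons of Spidr on the opposite strand, which had 279 and 389 counts. Cebpb shares exonic sequence in the same way with Tmem189, and Cebpa, Maf and Runx1 each with an annotated antisense RNA, none of which was analysed here. The library kit keeps strand, but the strand setting of the counting is unknown here, so reads from such partners cannot be told apart.

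Runx1 and Mitf had similar levels and ratios. Runx1 (ENSMUSG00000022952, chromosome 16, 92601466 to 92826149, minus strand) is the core-binding factor of blood stem cells and acts with PU.1 in myeloid genes. It had 283 and 1849 counts, or 3.26 FPKM (2.89 to 3.66) and 18.3 FPKM (17.4 to 19.1), a ratio of 6.41-fold (log2 2.68, interval 2.50 to 2.87). Mitf (ENSMUSG00000035158, chromosome 6, 97807052 to 98021349, plus strand) directs osteoclast, mast cell and melanocyte genes and is related to regulators of the lysosome. It had 212 and 1655 counts, or 2.47 FPKM (2.15 to 2.82) and 18.5 FPKM (17.6 to 19.4). At 7.65-fold (log2 2.94, interval 2.73 to 3.15) it had the second highest ratio of the 9, and its interval overlapped those of Spi1, Cebpe and Runx1. By FPKM both lay under Klf4 in the control library and above it in the knockdown library.

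Both genes are transcribed from several starts, which the counts per gene cannot separate. RefSeq windows of 250 bases before the start (GRCm38.p6) were found for 5 of the 9 factors, in 8 windows. The 3 windows that held a match to any of the 7 motifs searched belong to these genes and are shown for that reason, 5′ to 3′ on the strand of the gene, with the matches in capitals.
Mitf, most upstream start, chr6:97806808-97807057, plus strand: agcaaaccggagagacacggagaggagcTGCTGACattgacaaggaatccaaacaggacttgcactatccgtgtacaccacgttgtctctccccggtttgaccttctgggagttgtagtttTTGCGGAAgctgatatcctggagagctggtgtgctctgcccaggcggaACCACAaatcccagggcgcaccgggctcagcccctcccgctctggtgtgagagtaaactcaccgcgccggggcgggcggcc
Mitf, next start, chr6:97929567-97929816, plus strand: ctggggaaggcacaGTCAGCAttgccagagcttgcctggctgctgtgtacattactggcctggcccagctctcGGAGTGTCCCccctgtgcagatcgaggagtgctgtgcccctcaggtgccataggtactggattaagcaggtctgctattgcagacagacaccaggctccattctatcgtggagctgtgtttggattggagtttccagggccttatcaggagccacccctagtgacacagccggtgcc
Runx1, downstream start, chr16:92697330-92697579, minus strand: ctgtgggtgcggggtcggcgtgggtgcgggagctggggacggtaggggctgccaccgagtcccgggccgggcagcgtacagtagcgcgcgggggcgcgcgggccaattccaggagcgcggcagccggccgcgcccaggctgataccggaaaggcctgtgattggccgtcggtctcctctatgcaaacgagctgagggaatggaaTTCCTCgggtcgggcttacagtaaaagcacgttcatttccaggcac
In the first Mitf window the capitals mark a match to the MAF motif TGCTGAC, 222 to 216 bases before the start, one to the C/EBP motif TTGCNNAA, 129 to 122 bases before it, and one to the RUNX motif TGTGGT on the other strand, 81 to 76 bases before it. In the second they mark a MAF match on the other strand and, 177 to 168 bases before the start, a match to the kappaB consensus, the motif read by NF-kB, on the other strand. In the Runx1 window they mark the PU.1 core GAGGAA on the other strand, 46 to 41 bases before the start.

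Motifs were searched on both strands, and no marked matches overlap. Of all 32851 windows of this length, 23.3% held the PU.1 core, 14.0% the RUNX motif, 9.56% the C/EBP motif, 3.90% the kappaB consensus and 3.81% the MAF motif. The E-box CATGTG, which MITF can bind, was in 12.3% of windows and the DMRT1 core TACANTGT in 2.35%. Neither was found in the 8 windows of the factors. Other forms of the E-box were not searched. The form CACGTG does occur in the Klf4 window and the upstream Runx1 window, and its share over all windows was not counted. The windows of Cebpa, Cebpb and Klf4, the third of Mitf and the upstream one of Runx1 held none of the 7 motifs. No windows were found for Spi1, Cebpd, Cebpe and Maf. A match describes the letters and does not show binding.

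Maf and Klf4 were the members that differed least between the libraries. Maf (ENSMUSG00000055435, chromosome 8, 115682942 to 115707794, minus strand) is a factor of resident and interleukin-10 producing macrophages. It had 2503 and 3455 counts, the highest count of the 9 in the control library, at 29.4 FPKM (28.3 to 30.6) and 37.4 FPKM (36.2 to 38.7). Its ratio was 1.36-fold (log2 0.44, interval 0.36 to 0.51), and with library totals the log2 ratio was 0.0023 (interval -0.07 to 0.08). Klf4 (ENSMUSG00000003032, chromosome 4, 55527143 to 55532466, minus strand) promotes monocyte differentiation. It had 333 and 529 counts, or 5.84 FPKM (5.23 to 6.50) and 9.58 FPKM (8.78 to 10.4), a ratio of 1.56-fold (log2 0.64, interval 0.44 to 0.84). With library totals the log2 ratio of Klf4 was 0.20 (interval 0.0045 to 0.41). The intervals of Maf and Klf4 overlapped each other and that of Cebpd, and lay below those of the 6 factors counted as higher.

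**Figure D2:**
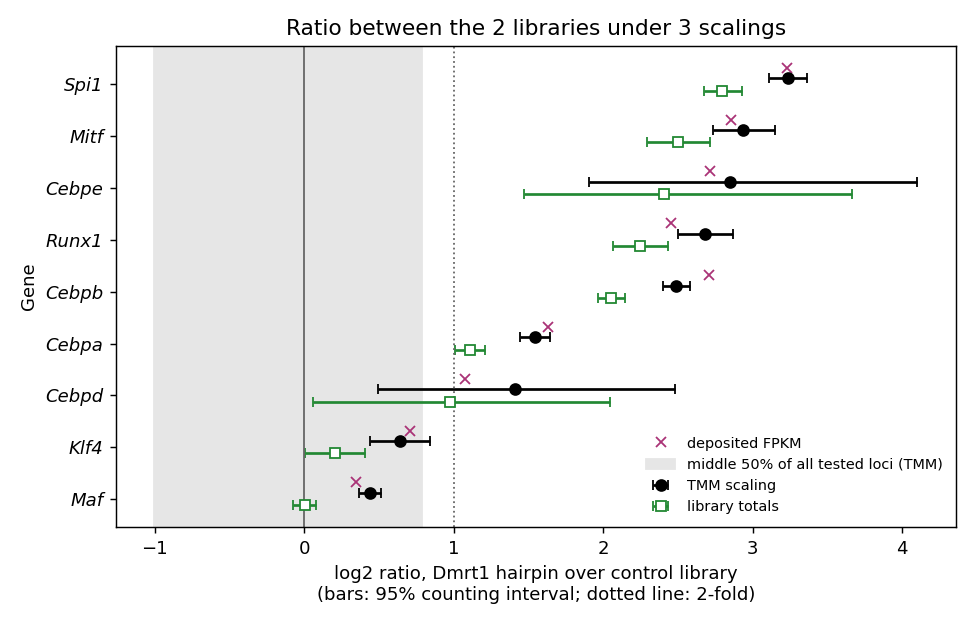
Log2 ratio of the knockdown over the control library for each factor, scaled by TMM (black, with 95% counting intervals), by library totals (green) and from the deposited FPKM values (crosses), with the range between the quartiles of all tested loci in grey. Spi1 is highest at 3.23 and Maf lowest at 0.44, and library totals place Maf at 0.0023.

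The order of the factors by level differed between the libraries. In the control library the FPKM ran from Cebpb through Maf, Spi1, Cebpa, Klf4, Runx1, Mitf and Cebpe to Cebpd. The intervals of Spi1 and Cebpa overlapped there, as did those of Cebpe and Cebpd, and those of Maf and Spi1 nearly touched. In the knockdown library the order was Cebpb, Spi1, Cebpa, Maf, Mitf, Runx1, Klf4, Cebpe and Cebpd, and among neighbours the intervals of Mitf and Runx1 alone overlapped. Spi1 lay at 0.884 times the FPKM of Maf in control and at 6.54 times in knockdown testis, a comparison within each library that no scaling between libraries affects. Against Cebpa, Spi1 went from 1.01 to 3.07 times.

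In the authors' deposited table, which gives the call up to 10.5% and the call down to 14.2% of 15104 loci, 5 of the 9 factors are called up, with FDRs of 1.22e-07 for Spi1, 1.96e-06 for Mitf, 1.92e-05 for Runx1, 0.000134 for Cebpb and 0.00108 for Cebpe. Cebpa, Cebpd, Maf and Klf4 are called normal in it, with FDRs of 0.107, 0.437, 0.924 and 0.785. These FDRs rest on single libraries and carry no measure of variation among mice.

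Relatives of the 9 factors in the same protein families covered a wide range of log2 ratios, from -0.80 to 3.72. Among 21 tested relatives 9 passed the 2-fold rule as higher and none as lower, against 17.7% and 20.8% of all loci, and their median log2 ratio was 1.02. Scaling by totals left 8 higher and 1 lower, against 12.7% and 27.8%, and a median of 0.59. Tfec, a relative of Mitf found mainly in macrophages, was 13.2-fold higher, from 33 to 450 counts (log2 3.72, interval 3.23 to 4.30). Its broadly expressed relatives Tfe3 and Tfeb, named after their values were seen, had log2 ratios of 0.50 and 0.61. In the RUNX family Runx2, known from bone, was 6.29-fold and Runx3, known from T and NK cells, 5.28-fold higher, beside 6.41-fold for Runx1. Their shared partner Cbfb, named after its value was seen, was at 0.84 on the log2 scale. Maff, a small MAF protein, was 4.87-fold higher.

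Most of the other myeloid transcription factors listed were higher. The 26 tested had a median log2 ratio of 2.17. Of these, 17 passed as higher and 1 as lower, against 17.7% and 20.8% of all loci. Scaled by library totals, 16 were higher and 2 lower, against 12.7% and 27.8%. Of the 17, 3 reached 1 CPM in the knockdown library alone. Bhlhe41, a factor of tissue macrophages, was 14.2-fold higher, Id2, an inhibitor of helix-loop-helix proteins, 9.84-fold, Irf5, an inducer of inflammatory cytokine genes, 9.32-fold and the zinc finger gene Egr2 8.58-fold. The lower one with TMM was Gata6, a factor of peritoneal macrophages that Sertoli and Leydig cells also express, with 756 and 253 counts (log2 -1.60, interval -1.82 to -1.40).

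Genes listed as targets of PU.1 were all higher in the knockdown library. All 19 tested passed the 2-fold rule, against the background of 17.7%, with a median log2 ratio of 3.86 and a range from 2.20 to 6.27. Of the 19, 5 were also on the list of macrophage and monocyte markers. This list and the other lists of related genes were chosen with earlier results of these data known. Their tallies therefore describe the lists and are no independent support. Cybb, the catalytic subunit of the phagocyte NADPH oxidase, had 1372 and 108166 counts and was 77.4-fold higher. The lysosomal marker Cd68 was 32.2-fold, the Fc receptor gene Fcgr3 31.9-fold and the integrin chain gene Itgb2 30.0-fold higher. Spi1 itself was at 9.40-fold.

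Granulocyte genes listed under the C/EBP factors were mostly at or near 0 counts in the control library, with Lcn2 as the main exception. Of 14 tested, 13 passed as higher and 1 as lower, against 17.7% and 20.8% of all loci. However, 10 of the 13 reached 1 CPM in the knockdown library alone and so could hardly have been called otherwise. Of the 4 with 1 CPM in both libraries, 3 were higher. The median log2 ratio of the 14 was 6.81, or 5.74 when the 5 genes without control counts were set at their ratio against 3 counts, and 4.91 with a prior count of 5. The list shares 7 genes with the neutrophil markers. Ngp, a granule protein gene, had 1 and 2644 counts (log2 ratio 10.76, interval 8.86 to 16.65, or 9.32 by FPKM), and the myeloperoxidase gene Mpo 2 and 833 counts (log2 ratio 8.36, interval 6.82 to 11.72, or 7.13 by FPKM). The elastase gene Elane had 0 and 301 counts, and the low end of its interval was a log2 ratio of 6.32. The collagenase gene Mmp8 had 0 and 441 counts, with a low end of 6.87. Lcn2, an iron carrier of secondary granules that epithelia also make, went the other way, from 90859 to 2480 counts (log2 -5.22, interval -5.28 to -5.16). Beside these values Cebpe went from 9 to 69 counts.

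Of 13 tested inflammatory genes listed under C/EBP beta and delta, 12 passed as higher and none as lower, against 17.7% and 20.8% of all loci. Of the 12, 3 reached 1 CPM in the knockdown library alone. The median log2 ratio of the 13 was 4.03. Nos2, the inducible nitric oxide synthase, had 50 and 21313 counts and was 415-fold higher. The haptoglobin gene Hp was 187-fold, the chemokine gene Ccl5 67.4-fold and the interleukin gene Il1b 62.2-fold higher. Cebpb was 5.62-fold higher beside them, and Cebpd lay at 0.728 and 1.46 CPM.

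Resident macrophage genes, several of them known to depend on MAF, went both ways, with a median log2 ratio of 0.84. The 2-fold rule placed 6 of 14 tested genes as higher and 3 as lower, against 17.7% and 20.8% of all loci, so that the share of lower genes was near the background. Scaled by library totals, 4 were higher and 5 lower, against 12.7% and 27.8%. The scavenger receptor gene Cd163 had 202 and 9 counts (log2 -4.44, interval -5.66 to -3.56, or -3.37 by FPKM), and the folate receptor gene Folr2 305 and 65 counts (log2 -2.25, interval -2.67 to -1.87). Higher ones included the hyaluronan receptor gene Lyve1, from 32 to 604 counts (18.3-fold). F13a1, the coagulation factor chain of macrophages, was 4.06-fold higher and the phosphatidylserine receptor gene Timd4 3.88-fold. Il10, with 13 and 84 counts, was 6.15-fold higher (log2 2.62, interval 1.81 to 3.63). Il10 reached 1 CPM in the knockdown library alone and Cd163 in the control library alone, which largely fixed the direction of both.

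Osteoclast and lysosomal genes listed under MITF were mostly higher. The median log2 ratio of 10 tested genes was 2.58. Of these, 8 passed as higher and 1 as lower, against 17.7% and 20.8% of all loci. Scaled by library totals, 6 were higher and 1 lower, against 12.7% and 27.8%. Atp6v0d2, a proton pump subunit of osteoclasts and macrophages, had 20 and 5011 counts and was 240.1-fold higher (log2 7.91, interval 7.31 to 8.66). The glycoprotein gene Gpnmb was 25.2-fold higher by counts, though 7.06-fold by FPKM, and the cause of that gap was not tested. The acid phosphatase gene Acp5 was 24.0-fold higher, and the chloride transporter gene Clcn7 had a log2 ratio of 3.33. The osteoclast receptor gene Oscar, had 26 and 0 counts, and the end of its interval nearest 0 was a log2 ratio of -2.74. It reached 1 CPM in the control library alone.

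**Figure D3:**
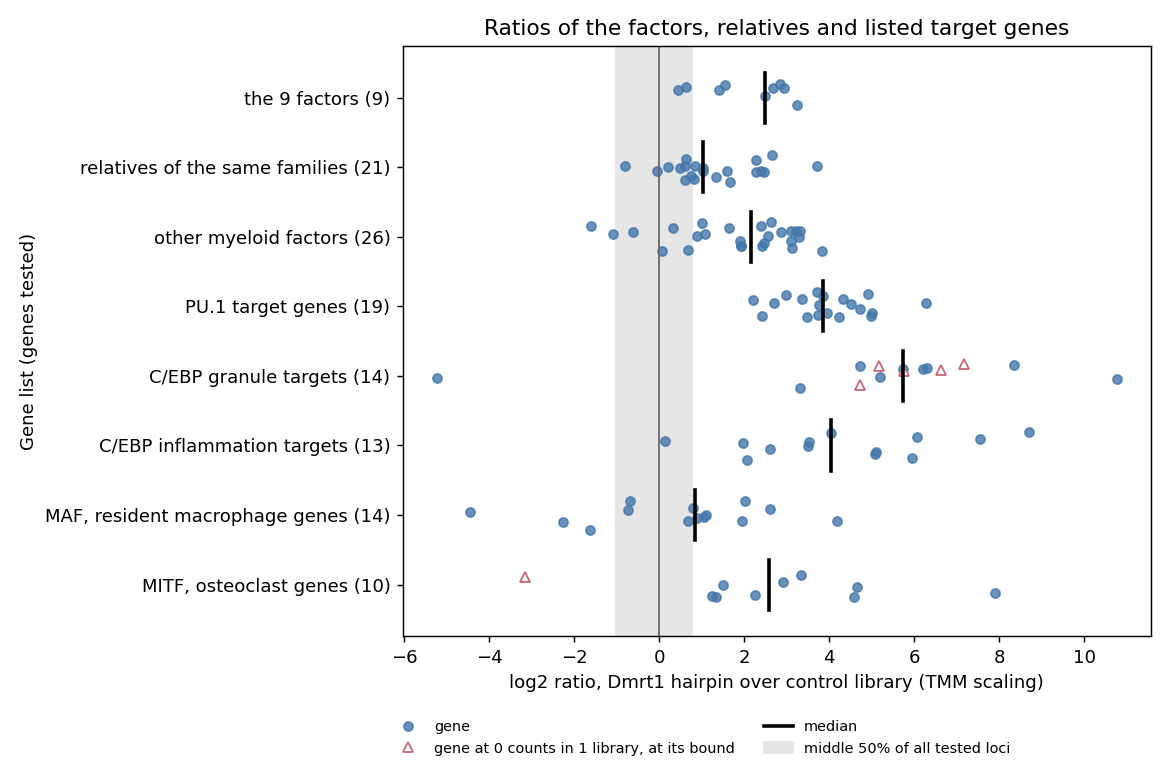
Log2 ratios of the knockdown over the control library for the 9 factors and 7 lists of related genes, each point 1 tested gene, with the list median as a bar and the range between the quartiles of all tested loci in grey. Triangles are genes at 0 counts in 1 library, drawn at their ratio against 3 counts, and medians are drawn with those ratios. The 19 PU.1 target genes lie between 2.20 and 6.27, and the 14 resident macrophage genes between -4.44 and 4.19.

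Markers of other cells in which these factors act were examined last. Of 8 tested mast cell markers, which bear on Mitf, 6 were higher and 2 lower, against 17.7% and 20.8% of all loci. All 6 reached 1 CPM in the knockdown library alone, which largely fixed that direction. The 10 in the table summed to 479 and 35.7 CPM, and 7 of the 10 had 0 counts in the control library. Nearly all of the control sum came from the 2 lower ones, Kit at 374 CPM and Hdc at 104 CPM, so the sums do not describe the other markers. Cpa3, a protease of mast cell granules, had 0 and 69 counts and Tpsab1, a tryptase, 0 and 74. Kit, which Leydig cells also express, had 6682 and 239 counts, and Hdc, the histamine-forming enzyme, 1852 and 232. Of the 4 melanocyte markers analysed, summing to 2.97 and 2.64 CPM, 2 were at 0 in the knockdown library, while Mlana had 0 and 54 counts. Among the Sertoli cell markers, which bear on Klf4, Fshr went from 293 to 11 counts and Rhox5 from 389 to 4. Both reached 1 CPM in the control library alone, which largely fixed their direction. The part of each cell type in the counts of the 9 factors was not tested.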

How the data were processed

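Testis RNA of 1 control and 1 Dmrt1 knockdown library was compared. Per the labels' protocols, TRIzol was used for extraction and a stranded kit for mRNA libraries. Build mm10 and the tools DESeq, edgeR 3.12.1, Subread 1.5.1, featureCounts, STAR 2.5.3a and Trimmomatic 0.36 stand in the submitters' processing notes without roles. The deposited table holds, per the file headers, read counts and FPKM per locus and library and the authors' EBSeq comparison (FDR 0.01, fold 2). For the annotation and the strand setting of the counting, nothing is given in the sources used here.

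Counts were scaled with TMM (edgeR 4.0.16, R 4.3.3; factors 1.16 and 0.860) over loci with at least 1 CPM in 1 library, and log2 ratios took a prior count of 0.5. Intervals are 95% Clopper-Pearson intervals of the knockdown share of both counts, and levels have exact Poisson intervals. Reads are not independent molecules, so intervals and floors cover counting error only. The floor is 3 counts per library, equal to 0.168 (control) and 0.122 (knockdown) CPM. Up to 4 higher and 2 lower genes per list, by the interval bound nearest 0, were named, except where a name is said to have been chosen after its value was seen. With 2 libraries no gene could be named for a pattern like that of a factor. The factors and lists were chosen with earlier results of these data known. Of 223 listed symbols, 8 were not analysed here. Gene positions come from GENCODE M21 (GRCm38, which mm10 names). The ratio procedure was tested on simulated counts that held counting error only. Few of the simulated loci changed, evenly higher and lower, so the test cannot check the scaling between libraries that differ this broadly. Alternatives were scaling by totals or by DESeq2 1.42.0 size factors, a larger prior count of 5, the deposited FPKM with a pseudocount of 0.1, other filters and other call rules. Python 3.11.15, numpy 2.4.6, scipy 1.17.1, pandas 2.3.3 and matplotlib 3.10.9 were used.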

Additional observations from a re-analysis of the deposited data

How the results depend on the processing

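No paired analysis was possible because there is a single library in each group, which also means that none could be left out. DESeq2 size factors and a prior count of 5 left the ratios of all 9 factors inside their intervals. Library totals moved 7 of the 9 beyond them and FPKM moved 3, and neither changed a sign. The number of factors counted as higher was 6 with library totals, DESeq2 size factors, a prior count of 5, FPKM or no filter. It was 5 with a filter at 5 CPM, which leaves out Cebpe and Cebpd, 7 by a 2-fold rule without an interval and 8 by a rule of at least 1.5-fold with an interval that excludes 1. Over all 15104 loci, that 1.5-fold rule gave 4462 higher (29.5%) and 4924 lower (32.6%), since it asks for less. The main rule gave 2676 (17.7%) and 3148 (20.8%). Of the same 15104 loci, the 2-fold rule without an interval gave 3213 higher and 3787 lower. FPKM gave 2754 and 3085, and DESeq2 size factors 2667 and 3164. By the main rule the filter at 5 CPM gave 2283 higher and 2246 lower, and no filter 2819 and 3472. A change of filter also changes the number of loci tested, so these last counts are not shares of 15104, and their own shares were not computed. Among the 128 listed related genes, only those with at least 1 CPM in 1 library were called. With TMM 83 of them were higher and 6 lower, against 17.7% and 20.8% of all loci. With library totals, which lower every ratio, 77 were higher and 10 lower, against 12.7% and 27.8%. The prior count of 5 moved the median of the granulocyte list to 4.91, library totals moved that of the family relatives to 0.59, and the list medians kept their sign under all of these scalings and filters and with genes at 0 counts set at their ratio against 3 counts, an alternative chosen after seeing the data. With 9 and 13 control counts, Cebpe and Cebpd are limited by depth. No alternative measures a spread between animals.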
